A study of Mus musculus with 35 samples.

Results

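Macrophages clear dying cells through receptors that see phosphatidylserine, the lipid that an apoptotic cell turns outward. Some of these receptors bind the lipid themselves, as TIM4 does, while others, such as the TAM kinases TYRO3, AXL and MERTK, hold on to it through a soluble bridge such as GAS6 or protein S. Kupffer cells, the resident macrophages of the liver sinusoids, are known for the uptake of dying blood cells and platelets, and MERTK, AXL and TIM4 are all known on them. The genes described here are 10 such receptors and bridges, chosen by name out of 54735 gene symbols in the count files. They comprise 7 receptors (Timd4, Mertk, Axl, Tyro3, Stab2, Havcr2 and Lrp1) and 3 bridges (Gas6, Pros1 and Mfge8).

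The libraries were bulk RNA-seq of macs sorted from the livers of male C57BL/6J mice, started at 5 weeks of age on a standard diet (SD) or a western diet (WD) rich in fat, sugar and cholesterol. There were 35 libraries in 6 groups. Resident Kupffer cells (ResKCs, sorted as CLEC4F+ TIM4+) came from SD-fed mice at 12 weeks (n = 7) and 24 weeks (n = 6) and from WD-fed mice at 12 weeks (n = 5) and 24 weeks (n = 6). Kupffer cells lacking TIM4 (moKCs, for monocyte-derived, sorted as CLEC4F+ TIM4-, n = 5) and CLEC4F- macs (n = 6) came from WD-fed mice at 24 weeks only, so that the effect of diet on those populations was not measured. The title of every 12-week WD library names the western diet, while another of its label fields says standard diet, and the title was followed. The labels do not say which libraries came from one mouse, so p-values measure the spread between libraries. In sorted bulk RNA, a lower share of cells that express a gene and less RNA of it per cell cannot be told apart.

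Between 11568590 and 15163845 reads were counted per library (median 13508086), at which depth 3 reads correspond to 0.198 to 0.259 CPM (counts relative to library size, scaled here by the trimmed mean of M-values, TMM). The sort labels were checked on their own markers. Clec4f, the C-type lectin that marks Kupffer cells, stood at 7326 to 11618 CPM in the moKC libraries and at 294 to 1539 CPM in 5 of the 6 CLEC4F- libraries. CLEC4F- replicate 4 stood apart with 5488 CPM of Clec4f, and the summed level of 8 Kupffer cell markers was 12786 CPM there against 1404 to 5892 CPM in the other 5, so results against CLEC4F- macs are also given without it. The 6 pan-macrophage markers summed to between 17842 and 29246 CPM in all libraries. Of the 10 members, 9 passed the filter (over 1 CPM in at least 5 libraries), as did 13421 genes in all. A gene is said to have changed, risen or fallen where edgeR's quasi-likelihood test gave a Benjamini-Hochberg adjusted p under 0.05 over those 13421 genes.

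Since levels of different genes can only be set beside each other per length, CPM were divided by the exon length of each gene model (CPM per kb). In WD ResKCs at 24 weeks the order was Axl at 499 ± 27.8 CPM per kb (SD, n = 6), Timd4 at 337 ± 53.3, Mertk at 163 ± 13.9, Lrp1 at 76.6 ± 7.99, Pros1 at 43.5 ± 4.63, Stab2 at 39.4 ± 4.65, Gas6 at 11.8 ± 1.71, Havcr2 at 6.77 ± 3.04 and Mfge8 at 2.01 ± 0.542. Neighbours in that order overlapped between libraries for 2 pairs, Pros1 with Stab2 and Gas6 with Havcr2. AXL, best known on cells under inflammatory stimulation, thus had the most RNA per length of the 3 TAM kinases, and Mertk lay below it in every library of this group. In CLEC4F- macs Axl (383 ± 48.2 CPM per kb) and Mertk (96.5 ± 30.3) had the highest levels, Havcr2 (22.9 ± 4.34) lay above Stab2 (13.6 ± 4.02), and Timd4 was at 3.79 ± 1.84. Tyro3, the third TAM kinase, held between 0 and 13 reads per library and failed the filter. Its highest level was 1.14 CPM, in 1 library of WD ResKCs at 24 weeks, and in the other groups it reached at most 0.804 CPM, so no difference in Tyro3 was detectable at this depth.

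**Figure D1:**
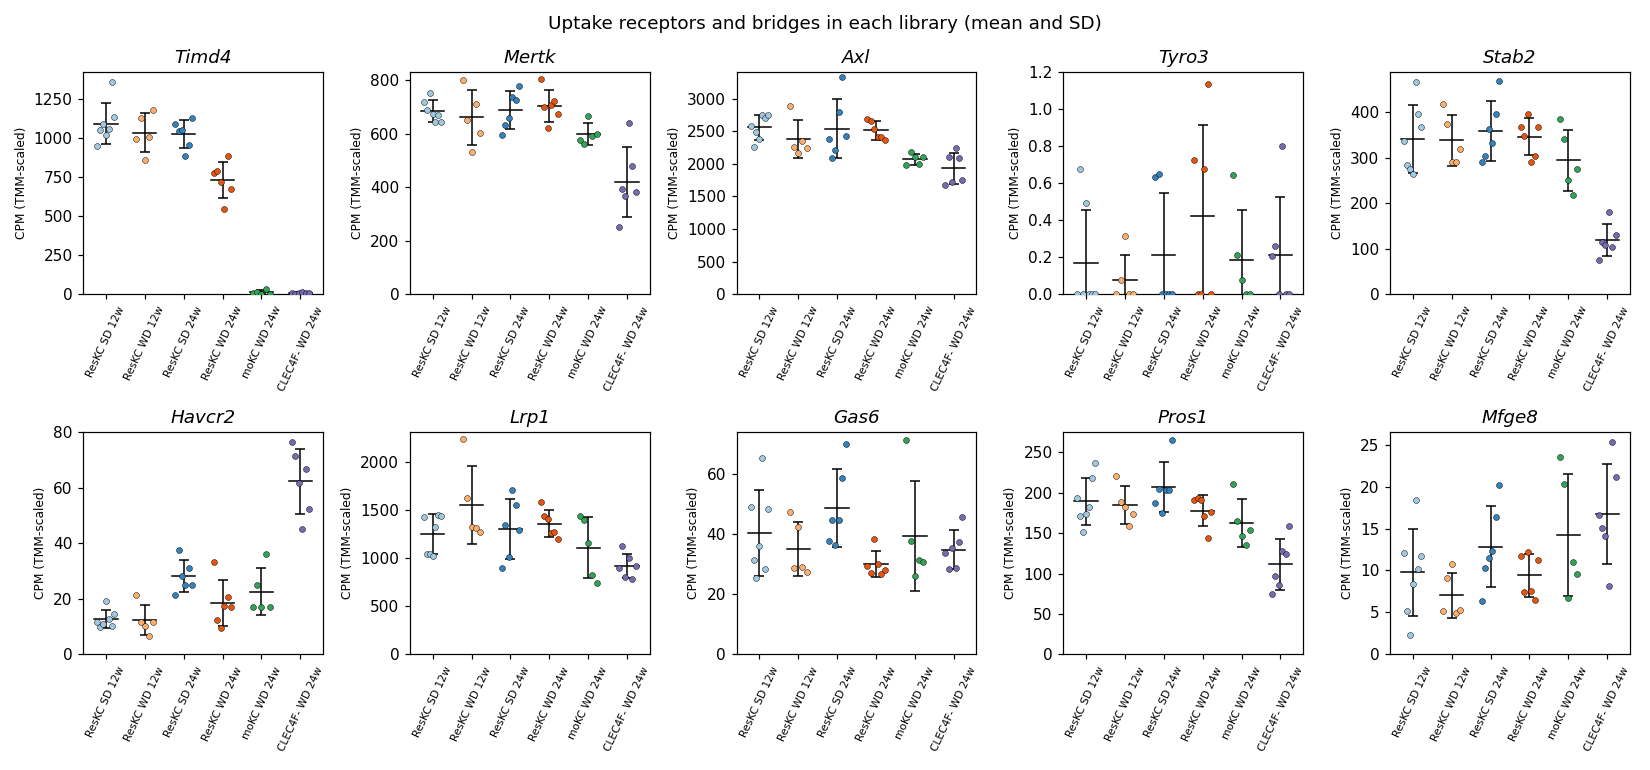
CPM (TMM-scaled, linear axes from 0) of the 10 members in each of the 35 libraries, by group, with the mean as a line and the SD as bars. Stab2, Mertk and Pros1 are lowest in CLEC4F- macs and Havcr2 is highest there, while Timd4 is near 0 in both TIM4- sorts.

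The receptor with the steepest pattern was Timd4, which encodes TIM4, a direct phosphatidylserine receptor that tethers dying cells. TIM4 protein was used to sort the cells, so its levels between populations are given as a description only. WD ResKCs at 24 weeks held 547 to 885 CPM (median 749), whereas the 5 moKC libraries held 9.17, 16.9, 3.07, 30.3 and 2.85 CPM and CLEC4F- macs 3.43 to 14.6 CPM (median 7.66). The fitted log2 difference was 5.88 between ResKCs and moKCs and 6.48 between ResKCs and CLEC4F- macs. Timd4 RNA therefore followed the surface sort, with a tail of 39 to 381 reads per library left in moKCs. MoKC replicate 4 carried the most of it, and without that library the log2 difference between ResKCs and moKCs was 6.51.

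By likeness of pattern (the smallest root mean square difference of gene-centred log2 CPM over all 35 libraries), the genes nearest to Timd4 were Cd163 at 0.89, C2 at 0.98 and Marco at 1.03, against an SD of 3.26 for Timd4 itself. Cd163, the haemoglobin scavenger receptor, had a mean of 1488 CPM in WD ResKCs at 24 weeks, and the moKC and CLEC4F- means were 68.7 and 14.0 CPM. Marco, a scavenger receptor for bacteria, went from 1242 CPM to 22.3 and 9.37 CPM.

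The question of how the other uptake genes differ between mac populations of the fatty liver was addressed at 24 weeks of WD. Against CLEC4F- macs, 5 of the 8 tested members other than Timd4 were higher in ResKCs (Stab2, Mertk, Pros1, Lrp1 and Axl), 1 was lower (Havcr2), and Mfge8 and Gas6 did not pass. Over all genes tested, 33.0% passed in this comparison, 17.0% higher and 16.1% lower in ResKCs. These were 2278 and 2155 genes, and 1631 and 3268 when scaled by library size alone, which moved the median of all genes to -0.14. The median log2 difference of the 8 members was 0.47, and that of all genes -0.02. Libraries of the groups did not overlap for 4 members (Stab2, Axl, Lrp1 and Havcr2), where 16.0% of all genes did not overlap.

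Stab2 encodes stabilin-2, a scavenger receptor for hyaluronan and phosphatidylserine that is best known from liver sinusoidal endothelial cells (LSECs). WD ResKCs held 291 to 396 CPM (median 357) of it, the moKC libraries 384, 341, 251, 218 and 275 CPM, and the CLEC4F- libraries 74.4 to 180 CPM (median 112). Every Kupffer cell library of either kind was above every CLEC4F- library. The difference was 1.54 ± 0.17 on the log2 scale (SE, 2.91-fold, edgeR adjusted p = 9.3e-09) for ResKCs and 1.31 ± 0.17 (2.47-fold, edgeR adjusted p = 2.0e-06) for moKCs. Without CLEC4F- replicate 4, which had the highest Stab2 of its group, these were 1.70 and 1.46.

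Because Stab2 is also an LSEC gene, 11 other LSEC markers were summed. None was at 0 throughout any group, and their sum was 198 to 833 CPM in WD ResKCs, against 445 to 931 CPM in CLEC4F- macs and 299.8 to 1812 CPM in moKCs. Measured against CLEC4F- macs, the fitted difference of 10 of the 11 was below 0 for ResKCs (median -0.29) and that of all 11 above 0 for moKCs (median 0.53), and none of them passed the test in either comparison. With the LSEC marker level as a covariate the Stab2 difference was 1.62 for ResKCs and 1.22 for moKCs, and both passed. The part of LSEC RNA in the Stab2 levels was not tested. In SD ResKCs at both times, in WD ResKCs at 24 weeks and in moKCs the library with the most LSEC marker RNA also had the most Stab2, up to 469 CPM, which was not so in WD ResKCs at 12 weeks or in CLEC4F- macs.

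**Figure D2:**
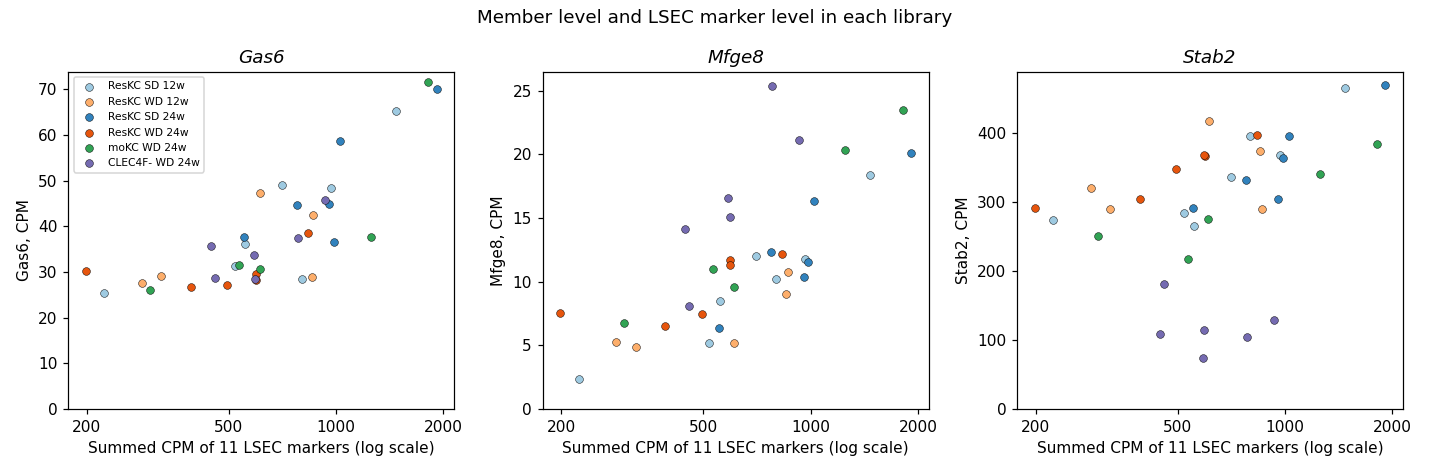
Gas6, Mfge8 and Stab2 in CPM (linear axes from 0) against the summed CPM of 11 LSEC markers (log axis), 1 point per library. Gas6 and Mfge8 rise from left to right across groups, whereas the 6 CLEC4F- libraries lie below all others in Stab2 at middling LSEC marker levels.

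Mertk encodes the TAM kinase that binds GAS6 and protein S and drives engulfment. It stood at 621 to 803 CPM (median 704) in WD ResKCs, at 578, 562, 668, 590 and 597 CPM in the moKC libraries and at 250 to 642 CPM (median 387) in CLEC4F- macs. Only CLEC4F- replicate 4 reached into the range of the Kupffer cells. Relative to CLEC4F- macs Mertk was higher by 0.75 ± 0.13 (log2, 1.68-fold, edgeR adjusted p = 1.6e-05) in ResKCs and by 0.52 ± 0.13 (1.43-fold, edgeR adjusted p = 0.0051) in moKCs. These values were 0.92 and 0.68 without replicate 4. The moKC call was lost (edgeR adjusted p = 0.087) when those 2 groups were fitted alone.

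Axl, the TAM kinase that depends on GAS6, was high everywhere. Its levels were 2370.3 to 2691 CPM (median 2472) in WD ResKCs and 1672 to 2244 CPM (median 1918) in CLEC4F- macs, and the moKC libraries had 1985, 2177, 2101, 1992 and 2098 CPM. All WD ResKC libraries were above all libraries of the other 2 populations. Axl was 0.38 ± 0.09 higher than in CLEC4F- macs (log2, 1.30-fold, edgeR adjusted p = 0.0012). Between moKCs and CLEC4F- macs the difference was 0.10, with a 95% interval of -0.09 to 0.29.

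Lrp1, a large endocytic receptor that takes part in uptake through calreticulin and complement C1q, was 1197 to 1579 CPM (median 1339) in WD ResKCs and 781 to 1125 CPM (median 908) in CLEC4F- macs. The 2 groups did not overlap, and the difference was 0.56 ± 0.16 (log2, 1.47-fold, edgeR adjusted p = 0.0074). The moKC libraries were spread across both, at 1433, 1396, 1159, 821 and 738 CPM, and did not pass against either.

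Havcr2, the gene of the phosphatidylserine receptor and checkpoint molecule TIM-3, went the other way. WD ResKCs had 9.52 to 33.2 CPM (median 17.3), moKCs 17.1, 25.1, 17.2, 36.3 and 17.2 CPM, and CLEC4F- macs 45.3 to 76.6 CPM (median 64.3). No Kupffer cell library reached the lowest CLEC4F- library. CLEC4F- macs thus had 3.38-fold the level of ResKCs (log2 difference -1.76 ± 0.25, edgeR adjusted p = 1.1e-06) and 2.77-fold that of moKCs (-1.47 ± 0.26, edgeR adjusted p = 0.00011). TIM-3 is also known on T and NK cells, and 2 of their 5 markers were tested. Both of these (median log2 difference -2.20) and 4 of 4 B cell markers (median -2.16) passed as lower in ResKCs too. So did 3 of 6 dendritic cell markers (median -1.95) and 3 of 5 monocyte markers (median -5.07), with none of either list passing as higher. The part of these cells in the Havcr2 difference was not tested. Nearest to Havcr2 in pattern were Marveld1, Syt11 and Mapkapk3, at 0.54, 0.56 and 0.56 against an SD of 0.91.

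Of the bridges, Pros1, which encodes protein S, a ligand of MERTK and TYRO3, was 144 to 194 CPM (median 184) in WD ResKCs and 74.7 to 158 CPM (median 110) in CLEC4F- macs, with the moKC libraries at 211, 165, 146, 135 and 155 CPM. It was higher than in CLEC4F- macs by 0.68 ± 0.14 (log2, edgeR adjusted p = 0.00026) in ResKCs and by 0.55 ± 0.15 (edgeR adjusted p = 0.0079) in moKCs. The latter call was lost when moKC replicate 1 was left out (0.43, edgeR adjusted p = 0.0503) and when those 2 groups were fitted alone (edgeR adjusted p = 0.077). Gas6, the bridge for all 3 TAM kinases, did not pass in any comparison of populations, with differences of -0.22 for ResKCs against CLEC4F- macs and -0.40 for ResKCs against moKCs. Mfge8, whose product bridges phosphatidylserine to integrins, was low, at 6.49 to 12.2 CPM in WD ResKCs and 8.11 to 25.3 CPM in CLEC4F- macs. It missed the threshold (-0.82 ± 0.35, edgeR adjusted p = 0.069), and passed it without CLEC4F- replicate 4 (-0.96, edgeR adjusted p = 0.033).

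The CLEC4F- libraries themselves were not alike. Replicate 1, with the least Kupffer cell marker RNA (1404 CPM) and the most Ccr2 (1131 CPM), also held the most B cell (163 CPM) and T and NK cell (18.6 CPM) marker RNA and had the lowest Mertk, Axl, Stab2 and Pros1 of the 6 and the highest Havcr2. Replicate 4, with the most Kupffer cell marker RNA and the least Ccr2 (217 CPM), had the highest Mertk, Axl and Stab2 and the lowest Havcr2 and Mfge8. Ccr2 encodes the chemokine receptor of monocytes and their recent progeny. The part of Kupffer cell content in these levels was not tested.

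Between ResKCs and moKCs, none of the 8 members passed, where 2.99% of all genes did (401 genes). The count of members was 1 at an unadjusted p under 0.05, with limma-voom and DESeq2 also at 0. Axl came nearest, since every ResKC library was above every moKC library (0.28 ± 0.10, 95% interval 0.08 to 0.47, edgeR adjusted p = 0.11), and it passed when only these 2 groups were fitted (edgeR adjusted p = 0.029). It was the 1 member without overlap, as were 3.21% of all genes. The 95% intervals were -0.04 to 0.50 for Mertk, -0.12 to 0.59 for Stab2 and -0.17 to 0.43 for Pros1. Differences larger than those bounds were thus outside the intervals, but smaller ones were not resolved. Gas6 (71.5 CPM) and Mfge8 (23.5 CPM) were highest in moKC replicate 1, which also held the most LSEC marker RNA of that group (1812 CPM).

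Against CLEC4F- macs, moKCs had 4 of 8 members changed, with Stab2, Mertk and Pros1 higher and Havcr2 lower. Over all genes 16.4% passed, 9.34% higher and 7.09% lower in moKCs (1253 and 951 genes, or 938 and 1478 by library size alone). Stab2 and Havcr2 were the 2 members without overlap, where 8.16% of genes had none. The 2 comparisons with CLEC4F- macs share those 6 libraries and are not independent.

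**Figure D3:**
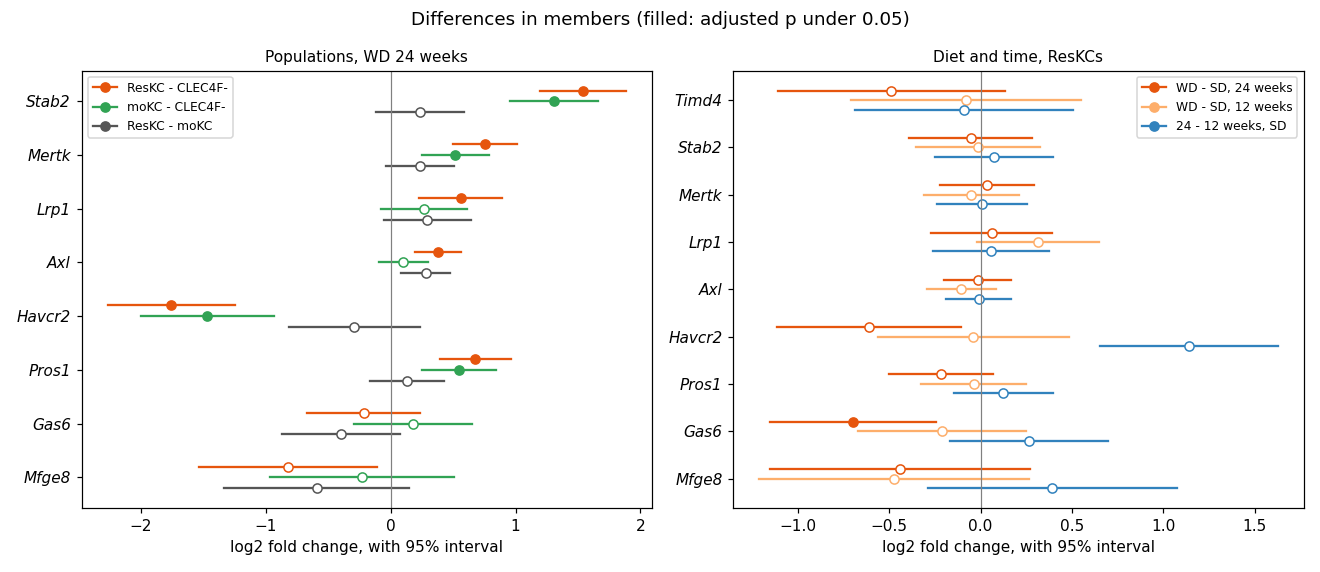
Log2 differences of the members with 95% intervals, on the left between populations at 24 weeks of WD and on the right between diets and times in ResKCs. Filled points passed at an adjusted p under 0.05, which on the right is Gas6 at 24 weeks alone.

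The promoters of 4 receptors are shown because their genes differed most between the populations among the receptors. Stab2 and Mertk were higher in both kinds of Kupffer cells than in CLEC4F- macs, and Havcr2 was lower. Timd4 was high in ResKCs alone, which were sorted on TIM4. Each run is the 250 bases before the RefSeq start site on GRCm38.p6, 5′ to 3′ on the strand of the gene, and capitals mark the motifs found. All 10 members had an entry.
Stab2, chr10:87007943-87008192, minus strand: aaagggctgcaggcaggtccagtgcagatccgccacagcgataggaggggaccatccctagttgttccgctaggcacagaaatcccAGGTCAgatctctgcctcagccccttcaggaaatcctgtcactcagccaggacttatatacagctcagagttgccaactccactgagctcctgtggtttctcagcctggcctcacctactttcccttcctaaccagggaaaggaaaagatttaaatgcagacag
Mertk, chr2:128698665-128698914, plus strand: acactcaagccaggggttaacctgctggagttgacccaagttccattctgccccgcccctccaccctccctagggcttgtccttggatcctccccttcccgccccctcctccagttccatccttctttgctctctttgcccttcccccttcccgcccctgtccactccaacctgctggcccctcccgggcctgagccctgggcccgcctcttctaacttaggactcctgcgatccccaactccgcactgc
Timd4, chr11:46810549-46810798, plus strand: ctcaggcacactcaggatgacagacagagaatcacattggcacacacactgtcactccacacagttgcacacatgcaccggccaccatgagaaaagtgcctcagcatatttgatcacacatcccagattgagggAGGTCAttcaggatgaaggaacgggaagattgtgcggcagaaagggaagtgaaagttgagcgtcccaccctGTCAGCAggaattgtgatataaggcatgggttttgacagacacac
Havcr2, chr11:46454681-46454930, plus strand: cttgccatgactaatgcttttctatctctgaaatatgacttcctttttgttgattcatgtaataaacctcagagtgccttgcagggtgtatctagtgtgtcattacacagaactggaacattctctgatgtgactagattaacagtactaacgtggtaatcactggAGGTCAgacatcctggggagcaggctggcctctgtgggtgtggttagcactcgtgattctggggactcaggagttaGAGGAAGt
The motifs searched on both strands were AGGTCA (a half-site of nuclear receptors such as LXR with RXR), TGGGAA (RBPJ), TGCTGAC (part of a MAF site), GAGGAAG (PU.1) and TATAAA, which can share bases only in part. AGGTCA stood at -164 from the start in Stab2, at -116 in Timd4 and at -84 in Havcr2, and it is held by 14.0% of 32851 promoter windows of that length. Timd4 also held GTCAGCA, the reverse complement of the MAF letters, at -45 (3.81% of windows), and Havcr2 held GAGGAAG at -8 (10.6%). The Mertk window held none of the 5, and it had 7 CpG against 3 in Stab2, 4 in Timd4 and 2 in Havcr2.

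The effect of diet was asked in ResKCs. At 24 weeks, 1 of the 9 members had changed between WD and SD, Gas6, which was lower. Over all genes 8.71% had changed, 4.84% higher and 3.87% lower under WD (650 and 519 genes, or 1139 and 340 by library size alone). At 12 weeks none had, with adjusted p from 0.61 to 0.99, and over all genes 0.0373% had (5 genes). No member passed at 12 weeks at an unadjusted p under 0.05 or with DESeq2 or limma-voom. The difference between the diet effects at the 2 times was tested itself and passed for none of the 9 members, where 0.283% of genes passed (9 higher and 29 lower, or 21 and 12 by library size alone). For Gas6 it was -0.49 (edgeR adjusted p = 0.52).

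Gas6 was at 36.5 to 70.04 CPM (median 44.8) in SD ResKCs and 26.7 to 38.5 CPM (median 28.8) in WD ResKCs at 24 weeks. In 5 of 6 WD libraries it was below every SD library. The difference was -0.70 ± 0.22 (log2, edgeR adjusted p = 0.045), and at 12 weeks it was -0.21 with a 95% interval of -0.67 to 0.25. LSEC markers moved with it, since 10 of 11 were lower under WD at 24 weeks (2 of them past the threshold), their sum having a median of 971 CPM (553 to 1912) under SD and 544 CPM (198 to 833) under WD. The SD library with the most Gas6 (70.04 CPM) was the one with the most LSEC marker RNA, and so was the WD library with the most Gas6 (38.5 CPM). With that marker level as a covariate the difference was -0.31 (edgeR adjusted p = 0.23). Marker level and diet went together here, so this fit cannot tell them apart. The part of LSEC RNA in the Gas6 difference was not tested. Immediate-early and heat-shock genes, which respond to cell handling, also fell at 24 weeks (6 of 10), and with them as a covariate Gas6 was at -0.60 (edgeR adjusted p = 0.20). With the 2 naming schemes of the files as a covariate it was -0.66 (edgeR adjusted p = 0.085). All 6 SD libraries at 24 weeks had the first scheme, against 3 of 6 WD libraries. At 12 weeks all 5 WD libraries had it, against 3 of 7 SD libraries. Scheme and diet thus partly went together at both times. The call was also lost in 9 of 12 fits that each left out 1 library (SD replicates 2, 4, 5 and 6 and WD replicates 1, 2, 4, 5 and 6).

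Mfge8 did not pass, at a mean of 12.8 ± 4.82 CPM under SD and 9.43 ± 2.55 CPM under WD (-0.44, edgeR adjusted p = 0.47), and with the LSEC markers as a covariate its difference was 0.30. The 3 genes nearest to Mfge8 in pattern over all 35 libraries were Cnn3, Eng and Igfbp4, at 0.37, 0.38 and 0.38 against an SD of 0.72. Eng, which encodes the endothelial receptor endoglin, had its highest means in SD ResKCs at 24 weeks (111 CPM) and in moKCs (108 CPM), and its lowest in WD ResKCs at 12 weeks (56.3 CPM), the group with the lowest Mfge8, and it was at 90.3 CPM in CLEC4F- macs, the group with the highest Mfge8. Stab2 was nearest to Siglec1, Tcn2 and Mrc1, at 0.21, 0.22 and 0.22 against an SD of 0.64, which are genes of the tissue macrophage sialic acid receptor, the vitamin B12 carrier and the mannose receptor.

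Timd4 did not pass for diet. Its libraries separated narrowly at 24 weeks under TMM scaling, whereas by library size alone the 2 groups overlapped. WD ResKCs ranged from 547 to 885.37 CPM and SD ResKCs from 885.44 to 1127 CPM, and it was the 1 member of 9 without overlap, where 4.11% of all genes had none. Cells of both diets had been gated on TIM4, so that cells with little of the protein lay outside the gate. The difference was -0.49 ± 0.30 (edgeR adjusted p = 0.33) with the spread taken over all 6 groups, including the 2 in which Timd4 was near 0, and the same difference gave an edgeR adjusted p of 0.0098 when the 2 groups were fitted alone. At 12 weeks the means were 1035 ± 125 CPM under WD (n = 5) and 1094 ± 130 CPM under SD (n = 7).

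Of the remaining receptors, the 95% interval of the WD effect at 24 weeks was -0.22 to 0.29 for Mertk, -0.20 to 0.17 for Axl, -0.39 to 0.28 for Stab2 and -0.27 to 0.39 for Lrp1. Their point values were 0.03, -0.02, -0.06 and 0.06. Lrp1 at 12 weeks was spread widely, with WD libraries at 2234, 1629, 1326, 1316 and 1270 CPM against 1025 to 1451 CPM (median 1324) under SD (0.31, edgeR adjusted p = 0.61). Pros1 did not pass either (-0.22, edgeR adjusted p = 0.35).

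Havcr2 was the member that differed most with time. In SD ResKCs it was at 9.93 to 19.2 CPM (median 11.8) at 12 weeks and at 21.5 to 37.8 CPM (median 26.7) at 24 weeks, without overlap, which 0.268% of all genes had. The difference was 1.14 ± 0.24 (log2) but did not pass over all genes (edgeR adjusted p = 0.13), where the share that passed was 0.0% and 1208 genes had an unadjusted p under 0.05. DESeq2 called 16 genes in that comparison, Havcr2 among them (adjusted p = 0.0082), and limma-voom gave an adjusted p of 0.15 for it. Leaving out SD 24-week replicate 1 gave an edgeR adjusted p of 0.047. Under WD at 24 weeks Havcr2 was 9.52 to 33.2 CPM (median 17.3), -0.61 ± 0.25 from SD (edgeR adjusted p = 0.12), and without WD replicate 1 this passed (-0.87, edgeR adjusted p = 0.024). Of the 2 naming schemes, all 24-week SD libraries had the first, as did 3 of the 7 at 12 weeks. With the scheme as a covariate the time difference was 1.17.

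Around these members, 108 further genes of apoptotic cell uptake in 6 lists were counted, of which 101 were tested. In ResKCs against CLEC4F- macs 32 were higher and 22 lower (53.5%, against 33.0% of all genes), and in moKCs against CLEC4F- macs 16 were higher and 16 lower (31.7%, against 16.4%). Between ResKCs and moKCs there were 3 (2.97%, against 2.99% of all genes), and 20 between diets at 24 weeks (9 higher and 11 lower, 19.8%, against 8.71%). No listed gene passed at 12 weeks, in the difference of diet effects or between times in SD ResKCs.

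Among the other receptors for apoptotic cells, 3 of 17 were higher and 7 lower in ResKCs than in CLEC4F- macs (58.8%, against 33.0% of all genes, median -0.20). Scarb1, a scavenger receptor that binds phosphatidylserine and HDL, was up by 0.66 and Cd300lf, a phosphatidylserine receptor of the CD300 family, by 0.44. Cd93, a receptor with a known part in clearing apoptotic cells, had means of 12.3 ± 3.96 CPM for ResKCs, 25.1 ± 7.94 for moKCs and 235 ± 54.8 for CLEC4F- macs (log2 differences -4.24 and -3.22 from the last). Trem2, a lipid receptor of macs in fatty tissue, was lower by 1.52 in ResKCs and 1.09 in moKCs, at 107 ± 55.0, 144 ± 60.5 and 307 ± 48.7 CPM. In moKCs 2 of 17 were higher, Msr1 (0.49) and Scarb1 (0.46), and 3 lower (29.4%, against 16.4% of all genes). Cd300lf was the sole receptor of the list that separated ResKCs from moKCs, being higher by 0.81.

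With WD at 24 weeks, Trem2 (1.58) and Cd36 (1.19), the receptor for oxidised lipids and thrombospondin, were among 3 listed receptors that rose, and Cd14 fell by 1.196. Of the 17 tested, 23.5% had changed, against 8.71% of all genes. Cd36 went from 292 ± 86.0 to 665 ± 129 CPM without overlap. These changes were in the libraries in which Mertk, Axl, Stab2 and Lrp1 were not called.

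The list of further bridges and ligands had 5 of 14 higher and 3 lower in ResKCs, and 4 and 4 in moKCs, against CLEC4F- macs. Each was 57.1% of the list, where 33.0% and 16.4% of all genes passed. C1qc (0.89) and C4b (3.86), complement proteins that coat dying cells, led in ResKCs, with C1qc at 5668 ± 581 against 3052 ± 800 CPM. In moKCs C4b (2.61) and C1qa (0.72) were higher. Anxa1, a phosphatidylserine-binding protein, fell to 8.58 ± 6.66 CPM in ResKCs from 131 ± 53.4 CPM (-3.93), and Lgals3 was lower by 0.49. Thbs1, which links dying cells to CD36, was lower in moKCs than in CLEC4F- macs (-2.46), as was Anxa1 (-3.42). Under WD at 24 weeks Thbs1 (2.26) and Lgals3 (0.34) rose in ResKCs and C1qa fell by 0.36 (21.4% of the list, against 8.71% of all genes). Libraries of the 2 diets overlapped for all 3. Thbs1 varied widely, at 51.9 ± 57.6 CPM under WD and 10.9 ± 8.75 CPM under SD.

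Of the engulfment signalling genes, 10 of 19 were higher and 3 lower in ResKCs than in CLEC4F- macs (68.4%, against 33.0% of all genes, median 0.19). Ptk2, the focal adhesion kinase downstream of integrins and MERTK, was higher by 1.72 and Src by 1.15, whereas Vav3 (-1.32) and Trio (-0.74) were lower. In moKCs 3 were higher, led by Ptk2 (1.57) and Arhgap35 (0.60), and Vav3 was lower (-0.91), in all 21.1%, against 16.4% of all genes. Between diets at 24 weeks 2 of 19 passed (10.5%, against 8.71% of all genes), Vav3 (0.54) and Crk (-0.34).

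Phagosome maturation and digestion had 7 of 25 higher and 2 lower in ResKCs against CLEC4F- macs (36%, against 33.0% of all genes, a share near that background). Map1lc3a, an LC3 protein that coats autophagosomes and some phagosomes, was higher by 1.15 and Uvrag, of the class III PI3 kinase complex, by 0.42, and Slc29a3 (-0.80) and Slc37a2 (-0.73) were lower. The same 4 genes led in moKCs (0.45, 0.35, -0.91 and -0.66), where 3 were higher and 3 lower (24%, against 16.4%). Map1lc3a also separated ResKCs from moKCs (0.70). With WD at 24 weeks 3 of 25 changed (12%, against 8.71% of all genes), Slc37a2 rising by 0.39 while Map1lc3a fell by 0.44 and Lamp2 by 0.21.

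Among 12 regulators of uptake genes, Rxra (1.17) and Nr1h3 (0.82), which encode RXRα and LXRα, the sterol-sensing pair known to act on Mertk, were higher in ResKCs than in CLEC4F- macs along with 2 others, and Pparg was lower (-1.17). That was 41.7% of the list, against 33.0% of all genes. Nr1h3 had means of 785 ± 84.0, 712 ± 56.3 and 445 ± 77.6 CPM in the 3 populations in that order (ResKCs, moKCs, CLEC4F- macs). In moKCs Rxra was up by 0.90, Nr1h3 by 0.68 and Pparg down by 0.98 (25% of the list, against 16.4% of all genes). Under WD at 24 weeks 4 of 12 fell and none rose (33.3%, where 8.71% of all genes changed and 3.87% fell). Klf4 was at -2.07 and Klf2 at -1.46 (immediate-early and heat-shock genes were lower in the same libraries, as given above).

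Of 14 genes of find-me signals, do-not-eat-me signals and receptor shedding, 3 were higher and 6 lower in ResKCs against CLEC4F- macs (64.3%, against 33.0% of all genes, median -0.63). The do-not-eat-me genes Cd47 (0.58) and Pirb (0.57) were higher. Cx3cr1, the fractalkine receptor through which phagocytes find dying cells, rose stepwise in mean from 10.8 ± 9.02 CPM for ResKCs through 72.3 ± 43.2 for moKCs to 537 ± 147 for CLEC4F- macs, and was the 1 listed gene lower in ResKCs than in moKCs (-2.74). Gpr132, a receptor of lysolipids, was likewise lowest in ResKCs (0.384 ± 0.427 CPM) and highest in CLEC4F- macs (11.1 ± 6.05 CPM). In moKCs Cd47 (0.40) and Pirb (0.34) were higher than in CLEC4F- macs and 4 genes were lower (42.9%, against 16.4% of all genes). With diet at 24 weeks Cx3cr1 (2.50) and Sirpa (0.25) rose and Pirb (-0.34) and P2ry6 (-0.29) fell (28.6%, against 8.71% of all genes). Adam17, the protease that sheds MERTK, was at 420 ± 34.99 CPM in WD and 396 ± 16.6 CPM in SD ResKCs at 24 weeks.

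**Figure D4:**
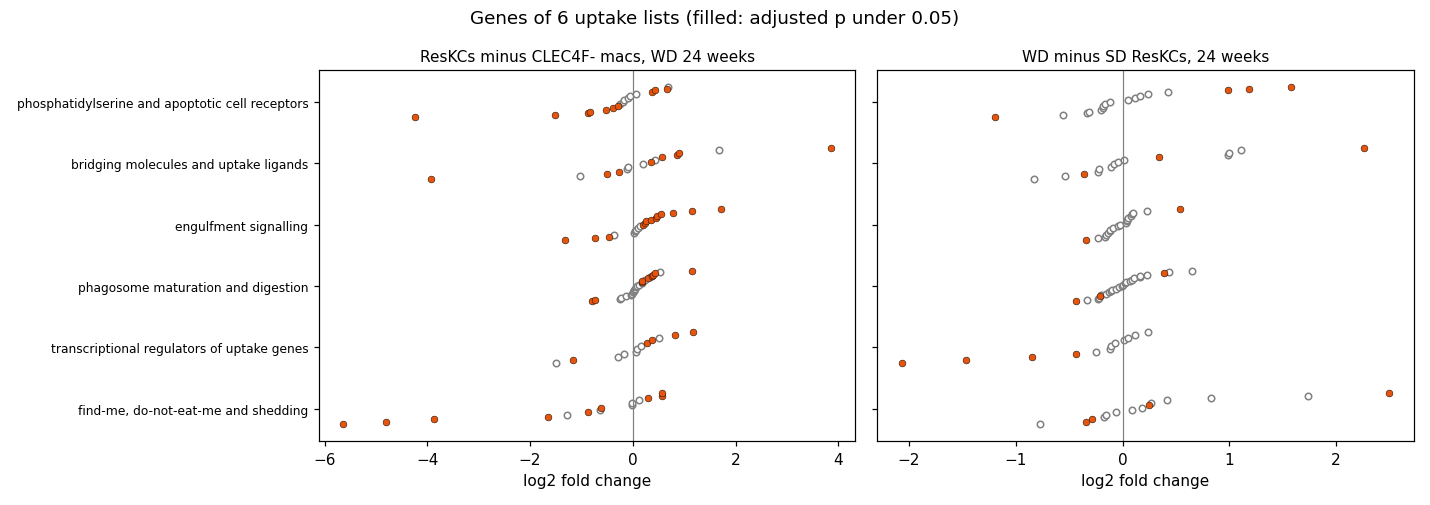
Log2 differences of the tested genes of 6 uptake lists (1 point per gene, spread vertically by rank), on the left ResKCs minus CLEC4F- macs and on the right WD minus SD ResKCs at 24 weeks. Filled points passed at an adjusted p under 0.05, 54 of 101 on the left and 20 of 101 on the right.

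Markers of other liver cells were found in all groups, at levels that differed widely between cell types and lay near the floor for some. Only 2 of 5 neutrophil, 1 of 4 cholangiocyte and 2 of 5 T and NK cell markers passed the filter. Their sums went down to 0.427, 0.0802 and 0 CPM in single libraries. Hepatocyte markers summed to 517 to 3957 CPM, with overlapping ranges in all 6 groups, and 9 stellate cell and fibroblast markers to 146 to 580 CPM. Monocyte markers were highest in CLEC4F- macs (358 to 1362 CPM, against at most 287 CPM elsewhere), those of dendritic cells reached 257 CPM there against at most 34.99 CPM elsewhere, and neutrophil and cholangiocyte markers stayed under 20 CPM in every library. B cell markers were at 28.3 to 163 CPM in CLEC4F- macs and at most 55.5 CPM elsewhere, and T and NK cell markers at 4.14 to 18.6 CPM against at most 5.32 CPM. Hepatocyte and LSEC marker levels were used as covariates, but the part of any of these cells in the member levels was not tested.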

How the data were processed

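Bulk RNA-seq of 35 libraries was analysed from the deposited tables of whole-number counts per gene symbol, 1 per library. According to the labels and the study's methods, the authors mapped single-end reads to mm10 with HISAT2 (2.2.0) and counted them with featureCounts (2.0.0). The annotation, the strand setting and the treatment of multiply mapped reads are not given in the sources used here, so overlapping and antisense genes may share reads. Libraries were grouped by their titles, and each file holds 1 library of counts. The 10 members, the uptake lists and the marker lists were chosen with earlier results of these data known. Of all symbols, 13421 exceeded 1 CPM in 5 or more libraries and were kept, scaled by TMM and fitted in 1 edgeR (4.0.16, R 4.3.3) quasi-likelihood model with 6 group means, with Benjamini-Hochberg adjustment over all genes. CPM per kb used the exon union of GENCODE M21 (GRCm38). Log2 CPM used a prior count of 2. Genes were named if they were members, among the 2 called genes with the largest log2 difference in each direction of a list (or known partners of a member), or among the 3 genes nearest in pattern to a member whose group means spanned over 1 on the log2 scale. Timd4 was left out of counts between populations, since TIM4 was a sort criterion. On simulated counts with 200 genes changed 4-fold, the step on 13421 genes recovered 89.5% of them for the diet comparison at 24 weeks and 84.0% for ResKCs against CLEC4F- macs. It made 11 and 5 false calls there, and recovered 79.5% for the difference of diet effects. Changes smaller than 4-fold were not simulated. Alternatives were DESeq2 (1.42.0), limma-voom (3.58.1), omission of the filter, scaling by library size only, the compared groups alone, covariates, a replicate block, a log2 limit of 1 and leaving out each library. Promoter sequences came from RefSeq tables on GRCm38.p6. Depth limits precision only through counting error, 3 reads being 0.198 to 0.259 CPM.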

Additional observations from a re-analysis of the deposited data

Results flagged for a closer look

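Dixon's gap test was run on 54 sets, 9 members in 6 groups, and marked 2 libraries, where chance marks about 5% of sets. Axl in replicate 1 of the WD ResKCs at 12 weeks was at 2889 CPM, with the other 4 libraries at 2162 to 2346 CPM. That library was also the highest of its group in Lrp1. Gas6 in replicate 3 of the WD ResKCs at 24 weeks was at 38.5 CPM, with the other 5 at 26.7 to 30.2 CPM, and it had the most LSEC marker RNA of its group.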

How the results depend on the processing

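At 24 weeks the count of members changed by diet was 1, and it was 0 with limma-voom, without the filter, with library size alone, with a covariate for the naming scheme, LSEC markers or immediate-early and heat-shock genes, and with a log2 limit of 1, and 2 (Gas6 and Timd4) when the compared groups were fitted alone. It ranged from 0 to 1 when single libraries were left out. Between times in SD ResKCs the count of 0 became 1 with DESeq2 (Havcr2) and ranged from 0 to 1 when single libraries were left out. Between ResKCs and moKCs it became 1 (Axl) with the compared groups alone. Against CLEC4F- macs the log2 limit of 1 left 2 members (Stab2 and Havcr2) for ResKCs and 2 for moKCs, and the compared groups alone left 2 for moKCs. Leaving out single libraries gave 6 to 7 members for ResKCs and 3 to 4 for moKCs. The member counts for diet at 12 weeks and for the interaction stayed at 0 under all 11 settings and with every single library left out. The cause of these changes was not tested.

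Small differences changed sign for diet at 24 weeks: Mertk to -0.027 with the naming scheme and -0.0048 with LSEC markers (-0.0065 to 0.073 leaving out single libraries), Axl to 0.068 with library size alone and 0.013 with LSEC markers (-0.066 to 0.076), Stab2 to 0.027 and 0.17 by the same (-0.11 to 0.036), Lrp1 between -0.026 and 0.15, and Mfge8 to 0.30 with LSEC markers. Timd4 at 12 weeks came to 0.014 with the naming scheme. Mfge8 between ResKCs and moKCs came to 0.0018 with LSEC markers. Between ResKCs and CLEC4F- macs Mfge8 passed in 5 of the 10 other fits. Its lowest edgeR adjusted p was 0.011, with hepatocyte markers as a covariate. With the immediate-early and heat-shock covariate the edgeR adjusted p was 0.14.

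Counts over all genes moved by over 1.5 times in some settings. For diet at 24 weeks (1169) they were 476 with the immediate-early covariate and 450 with the log2 limit. For diet at 12 weeks (5) they ran from 0 to 86, and for the interaction (38) from 8 to 187. The log2 limit left 186 genes of 401 between ResKCs and moKCs, 1399 of 4433 for ResKCs and 678 of 2204 for moKCs against CLEC4F- macs, and DESeq2 gave 16 against 0 between times. Leaving out single libraries gave 0 to 84, 8 to 98, 0 to 9 and 232 to 522 genes for diet at 12 weeks, the interaction, time and ResKCs against moKCs. The replicate number is shared by groups. Same-numbered libraries were held to a limit of a correlation over 0.1 in every pair, which no comparison met. For ResKCs against CLEC4F- macs all 6 pairs were above 0 (0.024 to 0.263, mean 0.117), with 4 of 6 over the limit. The mean was 0.056 for diet at 24 weeks and at most 0.048 in the others. This check cannot decide whether libraries share a mouse. Replicate 3 of moKCs had the second naming scheme, and replicate 3 of the other 2 WD populations at 24 weeks had the first. Groups of different diet or time hold different mice. With the replicate block the member counts did not change and diet at 12 weeks gave 86 genes. None of 60 group mean levels moved by over 1 SD with library size alone.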
